A study of Homo sapiens with 17 samples.

Results

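The gained FOXA1 regions are stretches of the A549 genome where FOXA1 peaks were called in cells given doxycycline to induce A-Fos, and not in the same cells without it. Peaks of the 4 FOXA1 lists from the A-Fos line that overlapped by at least 1 bp on chromosomes 1 to 22 and X were merged, and the members were chosen by these calls: a region was gained when it was called in both Dox lists and in neither No Dox list. The rule found 1279 gained regions among 27825 merged regions (4.6%), beside 3205 kept regions (called in all 4 lists) and 1872 lost regions (called in both No Dox lists and neither Dox list). The other 21469 regions were called in some other combination of lists.

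A549 is a human lung carcinoma line. The tested cells carried A-Fos integrated with piggyBac and were fixed 48 h after doxycycline was added at 1 µg/mL. Their controls were cells with the same A-Fos integration that received no doxycycline, and WT A549 cells with no treatment gave the parental FOXA1, H3K9me3 and H3K27me3 lists. Each of these groups had 2 libraries, called biological replicates in the labels, and FOSL2 was profiled in the A-Fos line with and without doxycycline. No cells that received doxycycline without A-Fos were analysed here, so the effects of A-Fos and of doxycycline itself cannot be told apart. Whether the A-Fos line is a clone or a pool is not given in the sources used here, and peak lists hold no expression, so the cell identity could not be checked from marker transcripts.

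FOXA1 is a pioneer factor with a forkhead domain, able to bind its motif in compacted chromatin, and it works in the lineages of the lung, liver and other gut-derived organs. AP-1 is a dimer of JUN and FOS family proteins such as FOSL2. A-Fos is a FOS leucine zipper with an acidic extension in place of the DNA-binding basic region, which pairs with JUN proteins and keeps them off DNA. H3K27me3 is laid down by Polycomb complexes at silent developmental genes, and H3K9me3 marks constitutive heterochromatin. The comparison asks where FOXA1 was called once doxycycline was given to induce A-Fos. It also asks what those places looked like in WT A549 cells and, for FOSL2, in the A-Fos line without doxycycline.

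The sequences below show promoters under gained regions, since the promoter table is where the reference letters of these regions could be read. The table (RefSeq, GRCh38.p14) holds 22132 promoters of 15812 protein-coding genes, each from 250 bases before to 50 bases after a transcription start. Gained regions overlapped 25 of these promoters. The forkhead motif was searched as TGTTTAC, with TATTTAC and also TGTTGAC as variants. The AP-1 motif was searched as TGAGTCA, which reads TGACTCA on the other strand. Both strands were searched, and the forkhead and AP-1 letters differ, so no match counts for both. The promoters printed here are those of all 9 genes with a forkhead match under a gained region and upstream of the start, with 1 of the 2 overlapping RASSF6 promoters shown. Each is given 5′ to 3′ on the gene's strand, with coordinates in hg38, and capitals mark the forkhead match on either strand.
CFAP126 (chr1:161367877-161368067, minus strand): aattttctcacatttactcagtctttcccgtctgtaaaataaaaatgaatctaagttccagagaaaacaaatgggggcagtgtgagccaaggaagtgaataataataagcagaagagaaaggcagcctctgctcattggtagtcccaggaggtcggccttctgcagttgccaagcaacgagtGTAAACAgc
FOXP1 (chr3:71245078-71245327, minus strand): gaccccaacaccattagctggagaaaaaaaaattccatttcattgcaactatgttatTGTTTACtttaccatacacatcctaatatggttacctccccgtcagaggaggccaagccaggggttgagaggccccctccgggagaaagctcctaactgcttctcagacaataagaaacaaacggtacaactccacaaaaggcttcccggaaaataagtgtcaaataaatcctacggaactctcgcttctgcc
PLA2G2A (chr1:19980435-19980677, minus strand): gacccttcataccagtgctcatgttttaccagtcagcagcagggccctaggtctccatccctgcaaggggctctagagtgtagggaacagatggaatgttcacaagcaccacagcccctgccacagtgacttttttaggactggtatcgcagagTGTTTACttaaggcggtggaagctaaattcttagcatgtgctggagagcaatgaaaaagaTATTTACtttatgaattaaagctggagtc
RASSF6 (chr4:73620632-73620827, minus strand): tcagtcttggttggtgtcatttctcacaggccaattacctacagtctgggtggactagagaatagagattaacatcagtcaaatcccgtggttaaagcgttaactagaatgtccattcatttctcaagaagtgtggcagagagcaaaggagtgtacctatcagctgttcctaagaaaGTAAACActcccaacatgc
CTDSP1 (chr2:218396876-218397079, plus strand): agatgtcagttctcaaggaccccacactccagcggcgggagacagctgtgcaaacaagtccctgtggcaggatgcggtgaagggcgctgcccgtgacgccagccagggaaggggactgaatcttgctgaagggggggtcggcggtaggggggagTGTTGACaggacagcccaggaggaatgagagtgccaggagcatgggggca
CAPN13 (chr2:30807447-30807696, minus strand): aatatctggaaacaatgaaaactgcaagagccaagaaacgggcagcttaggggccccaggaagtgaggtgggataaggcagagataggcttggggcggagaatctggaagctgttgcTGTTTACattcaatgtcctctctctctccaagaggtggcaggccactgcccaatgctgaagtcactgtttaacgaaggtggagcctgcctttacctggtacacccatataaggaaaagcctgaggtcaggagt
HAPLN2 (chr1:156619235-156619414, plus strand): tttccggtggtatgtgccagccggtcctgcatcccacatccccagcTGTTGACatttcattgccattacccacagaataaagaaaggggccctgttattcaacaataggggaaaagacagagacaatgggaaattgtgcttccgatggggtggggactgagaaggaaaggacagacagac
ANKUB1 (chr3:149792555-149792804, minus strand): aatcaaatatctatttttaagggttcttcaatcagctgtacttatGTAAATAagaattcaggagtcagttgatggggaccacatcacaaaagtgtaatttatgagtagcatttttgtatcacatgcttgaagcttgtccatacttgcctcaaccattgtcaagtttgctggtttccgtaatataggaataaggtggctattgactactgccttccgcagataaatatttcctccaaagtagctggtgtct
PLEKHG7 (chr12:92702792-92702988, plus strand): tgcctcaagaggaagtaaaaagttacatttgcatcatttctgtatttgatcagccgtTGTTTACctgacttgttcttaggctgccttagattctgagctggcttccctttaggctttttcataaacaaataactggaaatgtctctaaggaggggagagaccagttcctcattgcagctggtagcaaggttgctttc

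CFAP126 encodes a protein of motile cilia, FOXP1 is itself a forkhead factor, and PLA2G2A is a secreted phospholipase. RASSF6 is a Ras-association domain protein, CTDSP1 a phosphatase of the RNA polymerase II tail and ANKUB1 a protein with ankyrin repeats. CAPN13 is a calpain-family protease, HAPLN2 a linker of the hyaluronan matrix and PLEKHG7 a protein with a pleckstrin domain. CAPN13 and HAPLN2 also lay under H3K27me3 in both WT libraries. The motif counts that follow cover the whole promoter of 300 bases, with bases outside the FOXA1 region. Some promoters were overlapped only at an edge, such as that of FUZ, by 5 bases. A forkhead match was present in 13 of the 25 promoters under gained regions (52.0%, exact 95% interval 31.3 to 72.2) and in 33 of 65 under kept regions (50.8%). Under lost regions it was present in 4 of 10 (40%, 12.2 to 73.8), beside 6.49% of all promoters. Some genes have more than 1 promoter here: the 25 gained promoters belong to 23 genes, the 65 kept to 59 and the 10 lost to 9. AP-1 matches were most frequent in promoters overlapped by lost regions. They were present in 1 of the 25 gained promoters (4.00%, 0.101 to 20.4), that of TRIM44, against 4 of 65 kept (6.15%), 8 of 10 lost (80%, 44.4 to 97.5) and 4.01% of all promoters. The gained region covered 21 bases of the TRIM44 promoter, and no AP-1 match lay within them. The difference in promoter motifs was not tested. Under lost regions, 5 genes had an AP-1 match and no forkhead match upstream of the start, and the 2 with the strongest FOXA1 peaks are shown with the AP-1 matches in capitals.
ADGRF4 (chr6:47698330-47698579, plus strand): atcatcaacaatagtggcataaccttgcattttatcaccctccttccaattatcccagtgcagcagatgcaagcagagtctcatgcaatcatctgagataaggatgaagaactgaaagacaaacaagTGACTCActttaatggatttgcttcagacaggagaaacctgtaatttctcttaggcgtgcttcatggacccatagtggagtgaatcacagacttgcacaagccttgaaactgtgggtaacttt
MBNL2 (chr13:97141656-97141833, plus strand): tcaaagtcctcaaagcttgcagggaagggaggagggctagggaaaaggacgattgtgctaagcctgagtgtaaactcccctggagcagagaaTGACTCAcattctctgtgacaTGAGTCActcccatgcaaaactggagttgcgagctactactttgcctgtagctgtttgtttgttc

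ADGRF4 is an adhesion G-protein-coupled receptor and MBNL2 an RNA-binding regulator of splicing. Their regions had fold enrichments of 8.81 and 18.0 at ADGRF4 and of 5.99 and 8.12 at MBNL2 in No Dox libraries 1 and 2, and no call in either Dox library. The gained promoters were in the reverse state, called in Dox 1 and Dox 2 and not in the No Dox libraries. Their fold enrichments in Dox 1 and Dox 2 were 5.95 and 7.96 at CFAP126, 7.14 and 5.45 at FOXP1, and 4.12 and 4.69 at CAPN13. These enrichments are the authors' own, a linear ratio over background for each peak, and they chose the regions, so they are a description.

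Gained regions were peaks of middling strength (plot of enrichment in the Dox libraries). In Dox 1 the gained regions had a median fold enrichment of 4.87 (2.19 to 18.4), against 8.06 for kept regions, and in Dox 2 the medians were 5.63 (2.06 to 21.2) for gained and 10.4 for kept regions. Ranked by enrichment inside each list, with 100 as the strongest peak, the median gained region stood at percentile 56.3 in Dox 1 and 61.1 in Dox 2, and the median kept region at 82.7 and 86.6. Gained regions were 411 bp wide at the median, against 593 bp for kept and 441 bp for lost regions. Across the 1279 regions the log2 enrichments of Dox 1 and Dox 2 correlated with a Pearson r of 0.575 and a Spearman rho of 0.552, a description over regions that share libraries.

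**Figure D1:**
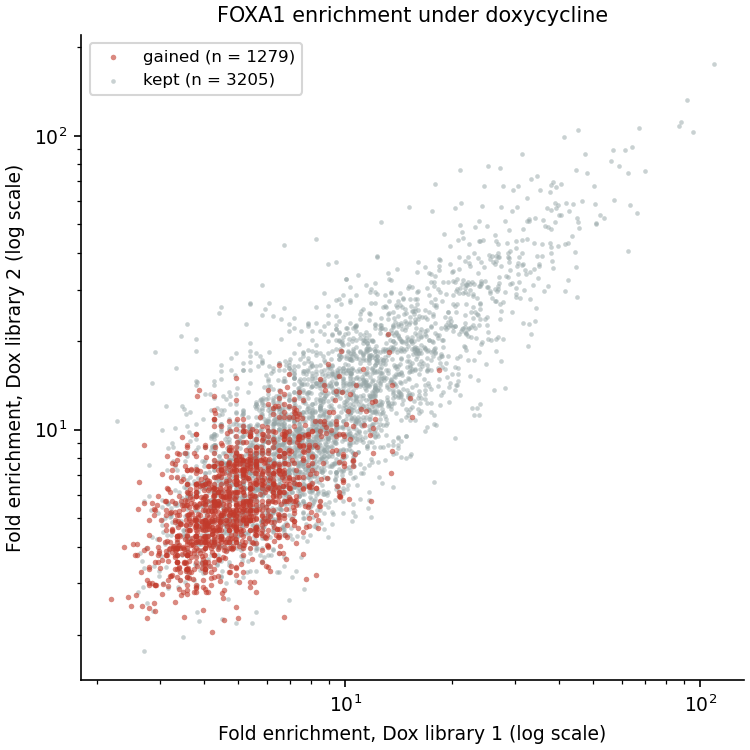
Fold enrichment of FOXA1 peaks in Dox library 1 (x axis) and Dox library 2 (y axis), both as linear ratios on log axes, with 1 point per region. The 1279 gained regions (red) sit at the low end of the 3205 kept regions (grey), with medians of 4.87 and 5.63 against 8.06 and 10.4.

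The threshold of the rule was the authors' peak call. The weakest gained regions passed with a −log10 q of 1.31, 1.35 and 1.39 in 1 of the Dox lists. Just outside the rule were 1378 regions called in both Dox lists and in 1 No Dox list, 1224 of them in No Dox 2 and 154 in No Dox 1, with a −log10 q in that list that began at 1.31 and had a median of 12.8. A missing call is not an absence of binding, since the lists hold only peaks past the threshold. The nearest No Dox peak was 52.1 kb away at the median, 1088 gained regions (85.1%) had none within 10 kb, and 8 had one within 500 bp. The number of gained regions was 8585 without Dox 1, 5744 without Dox 2 and 2503 without No Dox 2, and 1431 without No Dox 1. The lists themselves held 11112 (Dox 1), 15065 (Dox 2), 7633 (No Dox 1) and 13247 (No Dox 2) peaks.

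The strongest gained regions lay at genes of varied function. The 20 highest by mean percentile over the Dox lists, each nearest protein-coding gene counted once, had enrichments of 8.95 to 18.4 in Dox 1 and 10.2 to 21.2 in Dox 2. The highest was 21.7 kb from AKIRIN1, a nuclear protein, with 18.4 in Dox 1 and 16.0 in Dox 2. The next was 54.6 kb from BMPER, a secreted modulator of bone morphogenetic proteins, with 13.2 in Dox 1 and 21.2 in Dox 2. The following 3 lay inside TXNRD1, a thioredoxin reductase (13.3 in Dox 1 and 18.3 in Dox 2), CSMD2, a large transmembrane protein (13.5 and 14.2), and NCEH1, a hydrolase of cholesterol esters (15.2 and 12.9). All 5 had a call in both WT FOXA1 lists, and none of them had a call in No Dox cells.

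The rest of the 20 included regulators of transcription, adhesion and the cytoskeleton. The region inside NEDD9, a focal adhesion scaffold, had an enrichment of 12.1 in Dox 1 and 12.6 in Dox 2. Regions inside PTPN14, a tyrosine phosphatase, FNDC3B, SHROOM3, which shapes apical actin, FILIP1L, CLCN4, a chloride-proton exchanger, CDK5RAP2, a centrosome protein, and BTN2A2, a butyrophilin, spanned 8.95 to 11.9 in Dox 1 and 11.7 to 18.6 in Dox 2. The clock repressor CRY1 held a region at 9.63 in Dox 1 and 15.2 in Dox 2. Regions outside genes were nearest to HIVEP2, the kappa opioid receptor OPRK1, SUB1, FOXP1 and the secreted prostate protein MSMB. Of the 20 regions, 13 lay inside a gene, 16 were called in both WT lists and 1 in neither, the one inside CATSPERT, a part of a sperm calcium channel. None lay under either repressive mark in both libraries, and none overlapped FOSL2 of both No Dox libraries.

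Most gained regions were also FOXA1 peaks in WT cells, though less often than kept or lost regions and at lower ranks. A call in both WT lists was found for 913 of 1279 gained regions (71.4%, exact 95% interval 68.8 to 73.8), 3186 of 3205 kept regions (99.4%) and 1858 of 1872 lost regions (99.3%), against 57.7% of all merged regions. WT list 1 held 938 gained regions (73.3%) and the longer WT list 2 held 1128 (88.2%). These WT lists had 49448 and 80318 peaks, more than any A-Fos FOXA1 list. A WT call beside a missing No Dox call therefore sets lists of unlike length against each other. Gained regions called in list 2 alone numbered 215 (16.8%), in list 1 alone 25 (1.95%) and in neither list 126 (9.85%), against 5 kept regions (0.156%) and 4 lost regions (0.214%) in neither.

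The odds of a call in both WT lists were lower for gained than for kept regions (odds ratio 0.0149, 95% interval 0.00933 to 0.0237, two-sided Fisher exact test, p = 6.57e-189). Here and below, regions of 1 library are not replicates, so a p describes these lists and not the spread between cultures, and adjustment over the 10 comparisons of classes left 9 with an adjusted p of at most 0.0145. Against lost regions the odds ratio was 0.0188 (0.0110 to 0.0322, Fisher exact p = 5.11e-137). Leaving out 1 library moved the ratio against kept regions between 0.00259 (without Dox 2) and 0.0554 (without No Dox 2), with 0.00362 without Dox 1, 0.0452 without No Dox 1, 0.0351 without WT list 1 and 0.00775 without WT list 2. The ratio against lost regions did not keep its direction. It was 2.10 without No Dox 2 (Fisher exact p = 2.42e-30) and 0.451 without No Dox 1, where a lost region needs a call in only 1 library, and it was 0.00319 without Dox 1 and 0.00447 without Dox 2.

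Where gained regions were called in WT cells, they ranked lower than the other classes (box plot of WT ranks). In WT list 1 their median percentile was 65.3 (quartiles 47.3 and 78.5, n = 938), against 94.4 for kept and 90.3 for lost regions. In WT list 2 it was 76.2 (63.7 and 84.8, n = 1128), against 96.8 for kept and 94.3 for lost regions. The median WT enrichments of gained regions were 6.68 in list 1 and 9.80 in list 2, against 23.7 and 51.5 for kept and 16.6 and 34.2 for lost regions. Among the top 10% of WT list 1 were 47 gained regions (3.67%), against 2249 kept (70.2%) and 954 lost regions (51.0%), and among the top 10% of WT list 2 were 127 gained (9.93%), 2837 kept (88.5%) and 1409 lost regions (75.3%).

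**Figure D2:**
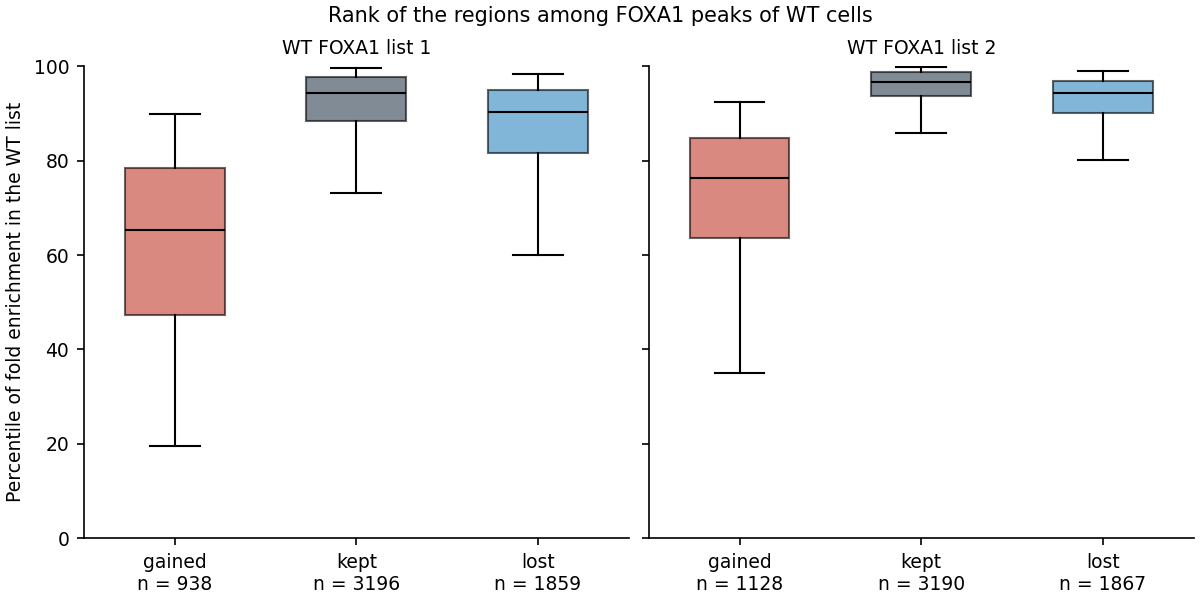
Percentile of fold enrichment in each WT FOXA1 list (y axis, 100 is the strongest peak) for gained, kept and lost regions called in that list. Boxes span the quartiles with the median as a line, whiskers run from the 5th to the 95th percentile, and gained regions sit lowest in both lists (medians 65.3 and 76.2).

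Gained regions had fewer calls in both WT lists than kept and lost regions of similar rank in the A-Fos lists that called them. All classes were cut together into 5 groups by the mean percentile of a region over the A-Fos lists that called it. Below, these are the groups of FOXA1 strength. The lists differ by class: Dox for gained, No Dox for lost and all 4 for kept regions. Median peak enrichments were 4.48 in Dox 1, 4.75 in Dox 2, 5.74 in No Dox 1 and 6.34 in No Dox 2. Equal rank is therefore not equal enrichment. In the strongest group 39 of 50 gained regions (78.0%, 64.0 to 88.5) had a call in both WT lists, against all 1034 kept and all 187 lost regions, and in the weakest group 234 of 397 gained regions (58.9%) did, against 221 of 240 kept (92.1%) and 621 of 635 lost (97.8%). Gained regions in neither WT list were also the weakest under doxycycline, with median enrichments of 3.98 in Dox 1 and 4.07 in Dox 2, against 5.02 and 5.83 for those in both WT lists.

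The gained regions with no WT call that ranked highest were few and scattered. The region inside CATSPERT had an enrichment of 9.42 in Dox 1 and 13.5 in Dox 2, and the one inside DAAM2, a formin-related Wnt regulator, 13.5 in Dox 1 and 8.45 in Dox 2. A region 293 kb from GADD45G, a growth arrest gene, had 8.56 in Dox 1 and 9.52 in Dox 2. The regions at DAAM2 and GADD45G lay under H3K27me3 in both libraries, with H3K27me3 enrichments of 3.02 and 3.87 at DAAM2 and 4.66 and 6.61 at GADD45G. The next 3 were nearest to LOC124904276 (7.16 in Dox 1 and 12.7 in Dox 2), CDK5RAP2 at 464 kb (6.28 and 7.72) and VANGL1, a planar cell polarity protein (5.82 and 8.51), with no mark in both libraries.

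At the other end, some gained regions were among the strongest FOXA1 peaks of WT cells. The region 42.2 kb from TALDO1, a pentose phosphate enzyme, had WT enrichments of 21.1 in list 1 and 78.4 in list 2, and 3.53 and 3.80 in Dox 1 and Dox 2. Inside ABCC3, an efflux transporter, the WT values were 21.5 and 50.4 and the Dox values 4.84 and 4.03. At the promoter shared by IFT20, an intraflagellar transport gene, they were 36.3 and 89.3 in WT cells and 4.70 and 5.35 with doxycycline. All 3 were without a call in either No Dox list. Enrichments of separate libraries are set side by side here and are not on a common scale.

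Gained regions lay under H3K27me3 of WT cells more often than kept or lost regions (plot of shares by library). Overlap with an H3K27me3 peak of both libraries was found for 143 gained regions (11.2%, 9.51 to 13.0), 52 kept regions (1.62%, 1.21 to 2.12) and 11 lost regions (0.588%, 0.294 to 1.05). All merged regions stood at 8.32%, so the gained share was near that of the whole set and the kept and lost shares were under it. Library 1 gave 13.0% of gained, 2.03% of kept and 0.748% of lost regions, and library 2 gave 16.7%, 2.65% and 1.34% in the same order of classes. Both libraries thus put the gained class highest.

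The odds ratio of H3K27me3 overlap was 7.63 for gained against kept regions (5.52 to 10.6, Fisher exact test, p = 3.87e-40) and 21.3 for gained against lost regions (11.5 to 39.5, p = 7.85e-45). Against kept regions it was 12.4 without Dox 2, 4.73 without No Dox 1 and 4.61 without No Dox 2. Against lost regions it was 32.2 without Dox 2, 5.90 without No Dox 1 and 1.80 without No Dox 2 (Fisher exact p = 1.41e-07). The ratio was smaller when regions of similar WT enrichment were compared. Among regions called in both WT lists it was 6.31 against kept and 21.1 against lost regions. Within 5 groups of WT enrichment, the same regions gave 2.10 against kept regions (Mantel-Haenszel, 95% interval 1.25 to 3.54) and 13.2 against lost regions (4.92 to 35.6).

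**Figure D3:**
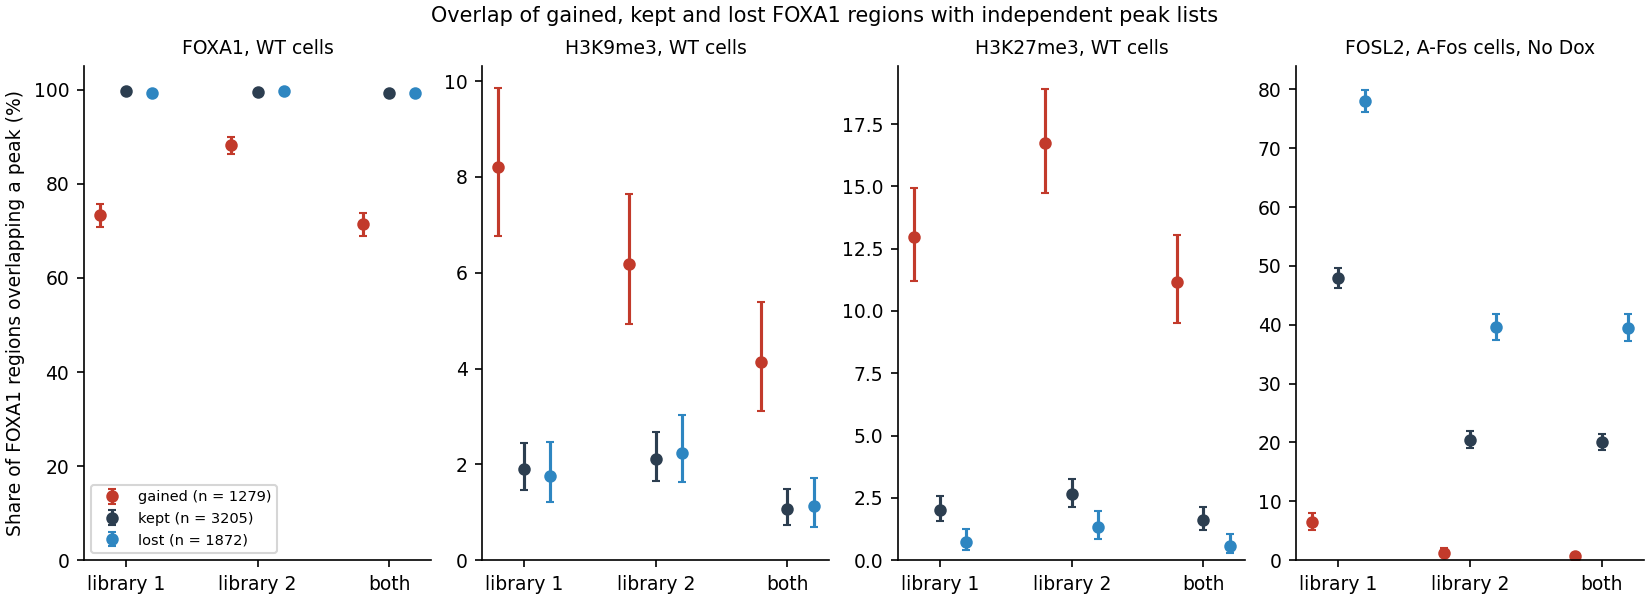
Share of gained (red), kept (dark) and lost (blue) FOXA1 regions (y axis, percent) that overlap a peak of library 1, of library 2 or of both, for WT FOXA1, WT H3K9me3, WT H3K27me3 and FOSL2 of A-Fos cells without doxycycline. Points are shares and bars exact 95% intervals over regions; gained regions are lowest for FOXA1 and FOSL2 and highest for both marks, at 11.2% for H3K27me3 of both libraries. The scales of the 4 panels differ.

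H3K27me3 covered most of the gained regions that it touched. Where the mark was present, both libraries covered a median of 93.7% of a gained region, against 39.6% of a kept and 63.9% of a lost region. With H3K27me3 peaks joined over gaps of up to 3 kb, the domain holding a gained region was 14.4 kb long at the median, against 20.7 kb for kept and 49.1 kb for lost regions. The mark was present at 85 of 913 gained regions called in both WT lists (9.31%) and at 58 of 366 of the others (15.8%). Along the 5 groups of FOXA1 strength, from weakest to strongest, the gained share was 13.6%, 12.2%, 10.2%, 7.49% and 4.00%, while kept shares stayed between 1.45% and 2.50% (plot by strength).

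**Figure D4:**
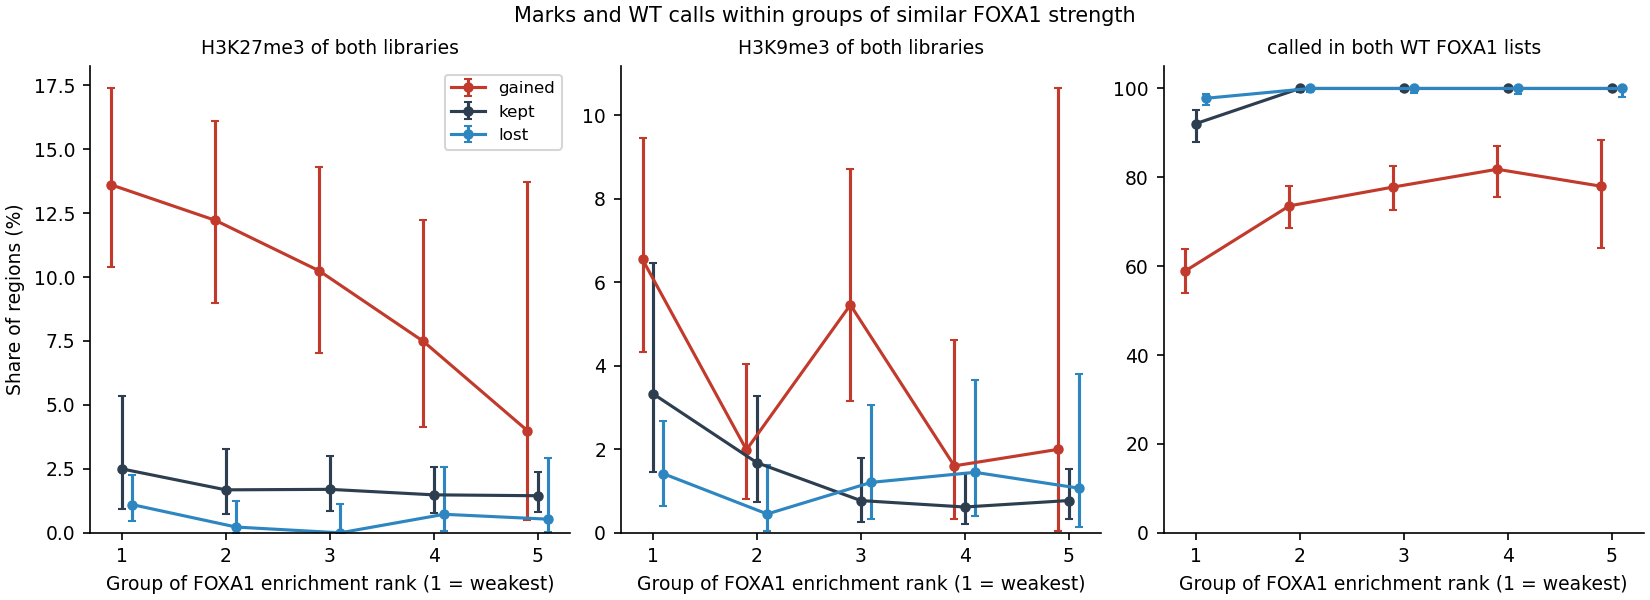
Share of gained (red), kept (dark) and lost (blue) regions (y axis, percent) under H3K27me3 of both libraries, under H3K9me3 of both libraries and called in both WT FOXA1 lists, by group of FOXA1 enrichment rank in the A-Fos lists (x axis, 1 weakest to 5 strongest). Bars are exact 95% intervals. The gained H3K27me3 share goes down from 13.6% in group 1 to 4.00% in group 5, where only 50 gained regions fall. Each region is ranked in the lists that called it, so equal rank is not equal enrichment across classes.

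The highest ranked gained region under H3K27me3 was 83.8 kb from STEAP1, a protein of the cell surface. It had FOXA1 enrichments of 10.0 in Dox 1 and 10.5 in Dox 2, WT FOXA1 enrichments of 5.81 and 11.5, and H3K27me3 enrichments of 2.71 and 3.51. The regions at DAAM2 and GADD45G came next. The promoter of CAPN13 had H3K27me3 enrichments of 5.08 and 6.01 with weak WT FOXA1 peaks of 3.20 and 4.56, and that of HAPLN2 had 6.55 and 7.97 with WT FOXA1 peaks of 7.48 and 14.4. A gained region 45.3 kb from SOX9, a factor of the developing lung and cartilage, had H3K27me3 enrichments of 4.40 and 4.55, no WT FOXA1 call, and FOXA1 enrichments of 3.36 in Dox 1 and 3.56 in Dox 2.

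H3K9me3 was also more frequent at gained than at kept or lost regions, at lower shares. The mark of both libraries was present at 53 gained regions (4.14%, 3.12 to 5.39), 34 kept regions (1.06%) and 21 lost regions (1.12%). All merged regions stood at 6.3%, above the gained share. Library 1 gave 8.21% of gained, 1.90% of kept and 1.76% of lost regions, and library 2 gave 6.18%, 2.12% and 2.24% in that order. The odds ratio was 4.03 for gained against kept regions (2.61 to 6.23, Fisher exact test, p = 3.08e-10) and 3.81 for gained against lost regions (2.29 to 6.35, p = 5.67e-08).

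Without No Dox 2 the H3K9me3 ratio against lost regions reversed to 0.589 (Fisher exact p = 1.20e-04), and it was 2.06 without No Dox 1, 9.33 without Dox 1 and 6.77 without Dox 2. Against kept regions it was 8.14 without Dox 1, 8.76 without Dox 2 and 2.45 without No Dox 2, and within the 5 groups of FOXA1 strength it was 2.58. The highest ranked gained region under H3K9me3 lay inside LHCGR, the luteinizing hormone receptor gene, with FOXA1 enrichments of 10.1 in Dox 1 and 11.6 in Dox 2 and H3K9me3 enrichments of 4.18 and 4.26. A region 8.30 kb from TSPOAP1 carried both marks in all 4 libraries, with H3K9me3 enrichments of 4.14 and 3.27 and H3K27me3 enrichments of 8.77 and 12.9. A region 23 kb from TNFSF8, a ligand of the tumour necrosis factor family, had 3.35 and 5.36 for H3K9me3. Both marks in all 4 libraries were found at 16 gained regions (1.25%), 2 kept regions and 0 lost regions. The share of all merged regions with both marks is not given here, so this count stands without a background.

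Gained regions were nearly free of FOSL2, the AP-1 protein profiled here. A FOSL2 peak of both No Dox libraries was found at 8 gained regions (0.625%, 0.270 to 1.23), 643 kept regions (20.1%) and 740 lost regions (39.5%), against 10.5% of all merged regions. The longer FOSL2 list of No Dox library 1 held 83 gained regions (6.49%), 1536 kept (47.9%) and 1462 lost regions (78.1%). Library 2 held 16 gained regions (1.25%), 656 kept (20.5%) and 741 lost regions (39.6%). FOSL2 lists from Dox cells held 8 gained regions in library 1 (0.625%) and 15 in library 2 (1.17%), 19 and 23 kept regions (0.593% and 0.718%), and 11 and 6 lost regions (0.588% and 0.321%).

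The odds ratio of FOSL2 overlap was 0.0251 for gained against kept regions (0.0124 to 0.0505, Fisher exact test, p = 3.02e-89) and 0.00963 for gained against lost regions (0.00478 to 0.0194, p = 1.10e-184). Left-out libraries kept both ratios under 1. Against kept regions the ratio was 0.0594 without FOXA1 Dox 2, 0.0407 without FOXA1 No Dox 1, 0.126 without FOXA1 No Dox 2, 0.0492 without FOSL2 No Dox 1 and 0.0754 without FOSL2 No Dox 2. Against lost regions it was 0.0329, 0.0226, 0.0835, 0.0193 and 0.0195 in that order, and 0.00648 without FOXA1 Dox 1.

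Around the gained regions FOSL2 was also sparser than around kept and lost regions. The nearest FOSL2 peak of No Dox library 1 was 14.5 kb away at the median for gained and 0.379 kb for kept regions, and the median lost region overlapped one. A peak of that library lay within 10 kb of 516 gained regions (40.3%), 2387 kept (74.5%) and 1661 lost regions (88.7%). The share over all merged regions is not given here for this distance. Where gained regions did overlap library 1, the FOSL2 peak was weak, at a median percentile of 33.6, against 65.3 for kept and 79.5 for lost regions.

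The 8 gained regions with FOSL2 of both libraries were nearest to CYP24A1, RP2, FOLR1, CTBP2, ABCA8, GRHL3, AQP9 and ROR2. All 8 were called in both WT FOXA1 lists, and none carried a repressive mark. The region 35.1 kb from CYP24A1, the enzyme that breaks down active vitamin D, ranked highest of the 8 by mean FOXA1 percentile over the Dox lists (8.06 in Dox 1 and 8.09 in Dox 2) and had FOSL2 enrichments of 3.55 and 4.43. The region inside ABCA8 had the highest FOSL2 enrichment in library 1, at 30.1, with 4.05 in library 2, and FOXA1 enrichments of 4.25 in Dox 1 and 4.08 in Dox 2. The region 5.85 kb from FOLR1, a folate receptor, had 16.6 and 6.89 for FOSL2, and the one 35.2 kb from GRHL3, an epithelial transcription factor, 17.1 and 4.38.

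Gained regions lay inside genes at the share of all merged regions, and kept regions stood above it. Inside a protein-coding gene lay 580 gained regions (45.3%), 1586 kept (49.5%) and 861 lost regions (46.0%), against 45.7% of all merged regions. The odds ratio was 0.847 against kept regions (0.744 to 0.965, Fisher exact test, p = 0.0131, Benjamini-Hochberg adjusted p = 0.0145 over the 10 comparisons of classes) and 0.974 against lost regions (0.845 to 1.12, p = 0.743). The difference from kept regions was lost without No Dox 2 (0.978, Fisher exact p = 0.673) and with the upper 50% of each list (0.973, p = 0.702), and the ratio against lost regions turned to 1.15 without No Dox 2 (p = 0.0106) and to 0.829 without Dox 1 (p = 9.42e-05). Promoters on chromosome 8 were not used here. On the other chromosomes promoters were overlapped by 22 of 1191 gained regions (1.85%), 57 of 3008 kept (1.89%) and 9 of 1743 lost regions (0.516%), against 0.966% of all merged regions there.

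No chromosome's share of gained regions passed the adjusted test against its share of kept regions (plot by chromosome). By Fisher's exact test with Benjamini-Hochberg adjustment over 23 chromosomes, 0 had an adjusted p under 0.05 (0%), and the lowest adjusted p was 0.181. An unadjusted p under 0.05 was found for 3. Chromosome 7 held 61 gained regions (4.77%) against 222 kept regions (6.93%, Fisher exact p = 0.00786), with 5.67% of all merged regions. Chromosome 15 held 72 (5.63%) against 131 (4.09%, Fisher exact p = 0.0314), with 5.93% of all regions, and chromosome 21 held 4 (0.313%) against 28 (0.874%, Fisher exact p = 0.0486), with 0.593% of all regions. Chromosome 12 held the most gained regions, 110 (8.60%), and a larger share of all merged regions, 10.5%. With a much longer gained list, 17 chromosomes passed without Dox 1 and 15 without Dox 2.

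**Figure D5:**
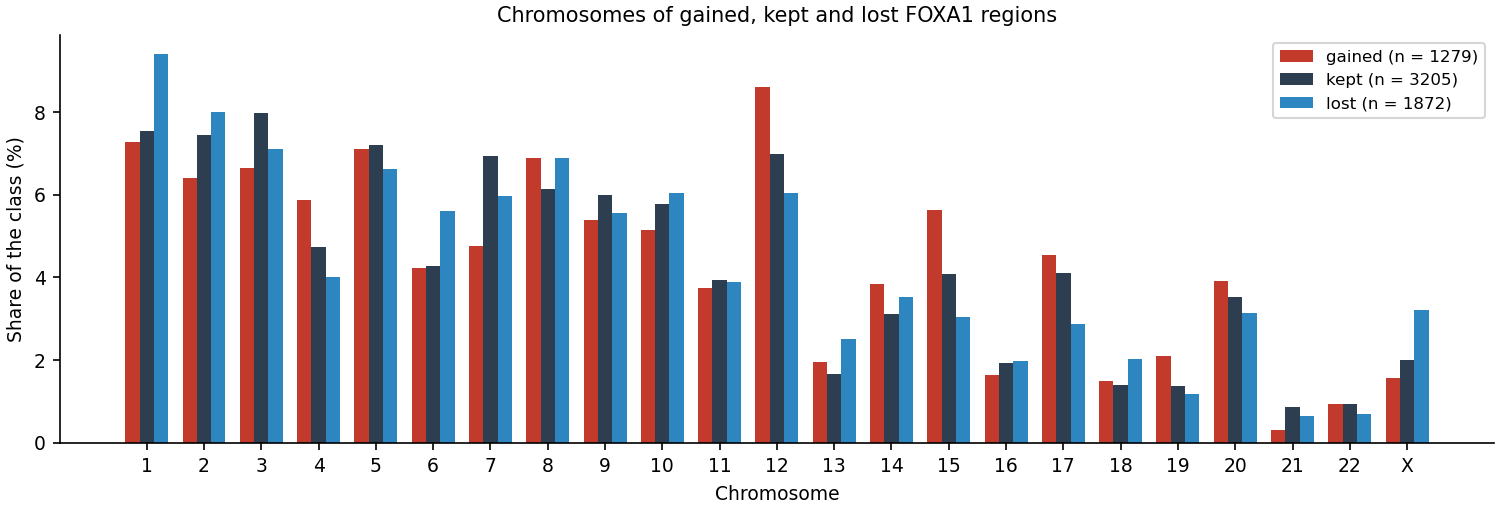
Share of each class of FOXA1 regions on each chromosome (y axis, percent of the class) for gained (red), kept (dark) and lost (blue) regions, with bars from 0. Chromosome 12 holds 8.60% of gained regions and 10.5% of all merged regions (not drawn); no chromosome passed the test of gained against kept regions after adjustment.

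Gained regions were mostly alone in their neighbourhood. The nearest other gained region was 517 kb away at the median, and 97 regions (7.58%) had one within 50 kb. Of 19974 protein-coding genes, 1382 (6.92%) had a gained region within 50 kb, 2922 (14.6%) a kept one and 1791 (8.97%) a lost one. A lone gained region was found near 1272 of the 1382 genes.

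The 13 genes with 3 or more gained regions within 50 kb had a median length of 292 kb, against 24.2 kb for all protein-coding genes, and a longer gene gives a longer window. PDE4D, a phosphodiesterase of cyclic AMP in a gene of 1553 kb, had 7, all inside it, with enrichments of 3.36 to 9.85 in Dox 1 and 3.96 to 10.7 in Dox 2. LRMDA, linked to melanocyte differentiation, had 4 over a gene of 1129 kb. NEDD9 had 4 in a gene of 199 kb, at 12.1, 7.12, 6.49 and 3.75 in Dox 1 and at 12.6, 11.1, 11.1 and 5.60 in Dox 2, and all 4 were called in both WT lists. ANKS1B, CEP83, a centriole protein, and KCNMA1, a potassium channel, had 3 each, and KLHDC8A and LEMD1 shared the same 3. NEO1, RALGAPA2, RGL1, SUMF1 and the short LGALS13 (4.95 kb) also had 3 each. At CEP83, 2 of the 3 regions had no WT FOXA1 call.

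Genes tied to AP-1 stood near the background. Of 19 AP-1 family genes 1 had a gained region within 50 kb, JDP2, a repressor of AP-1, at 8.86 kb with enrichments of 12 in Dox 1 and 8.34 in Dox 2. Of 45 genes linked to AP-1, 4 had one (8.89%), against 6.92% of all genes. They were ITGA2, a collagen receptor subunit (6.72 in Dox 1 and 12.3 in Dox 2), VEGFA (3.60 and 3.83), and the ERK phosphatases DUSP5 (3.70 and 4.10) and DUSP6 (3.58 and 3.36). The region near DUSP6 had no WT FOXA1 call. The genes of the proteins in question had none close by: the nearest gained region was 203.9 kb from FOXA1, 135.3 kb from FOS, 430.7 kb from JUN and 1631 kb from FOSL2.

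Lineage and metabolic lists gave small counts as well. Of 23 foregut lineage genes 2 had a gained region within 50 kb, GRHL3 and SOX9, and of 20 lung secretory genes 1 did, the phosphate transporter SLC34A2 (5.31 in Dox 1 and 7.96 in Dox 2). Of 22 liver plasma protein genes 1 did, AFP (5.37 and 5.74), and of 20 genes of epithelial-mesenchymal transition 1 did, SNAI1 (3.32 and 5.63). Of 24 lipid and cholesterol genes 4 did (16.7%): NCEH1, SOAT1, which makes cholesterol esters (4.60 and 6.12), the sterol exporter ABCG1 (5.60 and 4.12) and the fatty acid activating enzyme ACSL3 (7.39 and 9.50). Of 24 NRF2 target genes 3 did (12.5%): TXNRD1, TALDO1 and ABCC3. All protein-coding genes stood at 6.92%. Kept regions were near 5 of the lipid and cholesterol genes and 10 of the NRF2 targets, and lost regions near 7 and 5. The regions counted for AFP, SNAI1, TALDO1 and SOAT1 lay inside other genes, at 45.5, 40.3, 42.2 and 11.1 kb from the listed gene. With so few genes these shares describe the lists and were not tested.

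Signalling lists and lists of other tissues stood on both sides of the 6.92% of all genes. Of 31 genes of TGF-beta and bone morphogenetic protein signalling 2 had a gained region within 50 kb (6.45%). The receptor BMPR1B had 2 such regions (6.04 and 5.82 in Dox 1, 7.12 and 6.33 in Dox 2), and the antagonist CHRD had 1 (6.84 in Dox 1 and 14.0 in Dox 2). The region counted for CHRD lay inside another gene, 8.07 kb from CHRD. Of 17 steroid response genes 2 did (11.8%), ZBTB16 (2.88 and 5.38) and GREB1 (2.99 and 4.25). Of 25 marker genes of other cell types 4 did (16.0%): PECAM1, DES, MYOD1 and the glutamate receptor gene GRIN2B. The region was inside GRIN2B, but 5.25 kb from PECAM1, 48.5 kb from DES and 47.9 kb from MYOD1, the last inside another gene. Of 392 olfactory receptor genes 16 did (4.08%), of 518 ZNF genes 22 did (4.25%), and of 15 housekeeping genes 0 did. In the olfactory and ZNF families the same gained region could count for several neighbouring genes. The region inside OR51B5 also counted for OR51M1, OR51Q1, OR51I1 and OR51I2, and that inside ZNF569 for ZNF875 and ZNF527.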

How the data were processed

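ChIP-seq peak lists of 14 libraries were used; 3 inputs were not analysed here. The authors deposited 1 narrowPeak list per library with a linear fold enrichment (a ratio) and the −log10 of the p-value and q-value of each peak. Build hg38 and the programs MACS2, deepTools, SAMtools 1.8, BWA 2.2.1, fastp 0.23.2 and DRAGEN are named, without roles, in the submitters' processing notes. The lists hold no counts, so the depth behind a peak is unknown and intervals cover counting of regions alone. The authors' running peak numbers skip 77 to 172 values in each A-Fos FOXA1 list and 0 in the WT lists; why is not given in the sources used here. A peak left out of a No Dox list could make a kept region count as gained, and this was not tested. Groups and replicate numbers came from the titles.

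Regions were compared by overlap of at least 1 bp, with two-sided Fisher exact tests, Woolf intervals for odds ratios and exact (Clopper-Pearson) 95% intervals for shares (Python 3.11.15, SciPy 1.17.1, pandas 2.3.3). The code was tested on simulated regions. Gene intervals and promoters came from RefSeq GRCh38.p14 tables (19974 protein-coding genes). Opposite-strand promoters that overlap had matching letters in 2749 of 2749 pairs. The members, gene lists and alternatives were chosen with earlier results of these data known. Named regions are the 20 highest by mean Dox percentile, the 6 highest without a WT call, the 3 highest in each mark, those with FOSL2 of both No Dox libraries, the 8 genes with most gained regions (13 are named, since 10 tie at 3), up to 4 genes per list, and FOXA1, FOSL2, FOS and JUN. Promoters shown, TRIM44, IFT20, SOX9 as an H3K27me3 case, and TALDO1 and ABCC3 as strong WT peaks were singled out after their values were seen.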

Additional observations from a re-analysis of the deposited data

How the results depend on the processing

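Settings were changed one at a time: peaks with −log10 q of at least 2, the upper 50% of each list, lists of equal length, 200 bp around summits, 50% coverage, groups of FOXA1 strength, each library left out and the replicate block; regions in both WT lists and groups of WT enrichment were added after seeing the data. Of the compared values, the calls of WT FOXA1, FOSL2 and both marks against kept regions kept their direction and their side of 0.05 under every setting run. With 1 library left out, the number of gained regions ran from 1431 to 8585, the chromosomes that passed from 0 to 17, the WT call against lost regions from 0.00319 to 2.10, H3K9me3 against lost regions from 0.589 to 9.33, the share inside genes against kept regions from 0.726 to 0.978 and against lost regions from 0.829 to 1.15. The share inside genes against kept regions lost its call with the upper 50% of lists (0.973), equal lengths (0.904), summits (0.879), regions in both WT lists (0.908) and groups of WT enrichment (0.988). Against lost regions it turned above 1 with the upper 50% (1.11), equal lengths (1.03), regions in both WT lists (1.05) and groups of WT enrichment (1.09). The cause was not tested. The replicate block sets Dox and No Dox libraries of the same number against each other. Regions gained in both pairs are those of the main rule, so their count of 1279 was fixed in advance and shows no stability. The ratios and chromosome tests of the block instead pooled regions classed within each pair, and a region could count in both pairs. In that wider set 17 chromosomes passed, and the share inside genes against lost regions was 0.876. The block also moved other ratios against lost regions: H3K27me3 to 5.07 (21.3 without the block), WT call to 0.133 (0.0188) and FOSL2 to 0.0422 (0.00963), and FOSL2 against kept regions to 0.0705 (0.0251), with no change of call. Same-numbered libraries deviated together (correlation 0.514 over 3205 kept regions). The labels do not say whether the same number means a shared culture or batch, and with 2 pairs this was not tested. The main comparisons do not use the pairing. Depth cannot be read from the lists, so list length and sequencing depth cannot be told apart.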

Other observations

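A look at gene families after the counts were known found 2 gained regions in the HOXB cluster, which together put 8 HOXB genes within 50 kb of a gained region. These genes lie close together, so the 8 count the same 2 regions over again. Of all protein-coding genes 6.92% had a gained region that near. A share over all HOX genes is not given here, and the cluster was not tested.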
